A study of Rattus norvegicus with 48 samples.

Results

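Fasn, Acaca, Scd and Srebf1 make up a small lipogenic set of 3 enzymes and 1 regulator, and all 4 were found among the 32883 genes of the deposited count table by their rat Ensembl IDs. All 4 also passed the filter on low counts and were among the 14775 genes tested. They were followed through 48 RNA sequencing libraries of precision-cut rat liver slices, thin sections of living tissue kept outside the body, in a model built for testing compounds against fibrosis. Slices from rats with a ligated bile duct (BDL), in which bile backs up and scar tissue forms, received SB525334 (BDL_SB525334, n = 9), Nint (BDL_Nint, n = 10), Sora (BDL_Sora, n = 10) or vehicle (BDL_veh, n = 10), and slices from sham-operated rats received vehicle (Sham_veh, n = 9). SB525334 is an inhibitor of ALK5, the type I receptor kinase of TGF-beta, and Nint and Sora are read here as the multikinase inhibitors nintedanib and sorafenib, for which the labels give the short forms. The labels state no dose, exposure time, strain, age or number of animals, so nothing says that libraries of a group come from separate rats, and p-values measure their spread alone, which may be technical.

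Fatty acid synthesis starts when acetyl-CoA carboxylase, encoded by Acaca (ENSRNOG00000034013), makes malonyl-CoA from acetyl-CoA. Fatty acid synthase, encoded by Fasn (ENSRNOG00000045636), joins these units into palmitate, and stearoyl-CoA desaturase, encoded by Scd (ENSRNOG00000013552), puts a double bond into the saturated chains that arise. Srebf1 (ENSRNOG00000003463) encodes SREBP-1, a membrane-bound transcription factor that is cleaved to enter the nucleus, is known as an activator of all 3 enzyme genes in liver, and in hepatocytes is itself raised by insulin and by the oxysterol receptor LXR.

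Total counts were 12570357 to 15523934 per library in BDL_SB525334, 12249470 to 20392041 in BDL_Nint, 12705817 to 29596987 in BDL_Sora, 12723015 to 20629332 in BDL_veh and 13551784 to 17386947 in Sham_veh. Levels are given in CPM, the count of a gene relative to the total count of its library after scaling with TMM factors (a trimmed mean of ratios between libraries), so they compare libraries for 1 gene and not genes with each other. Fasn, Acaca and Srebf1 had whole counts in 48 of 48 libraries, whereas Scd had a whole count in 0 of 48. A gene count that is not whole means that some reads were divided between genes, so the level of Scd includes a share that was estimated. For SB525334 the name in the deposited sample sheet differed from the labels in 9 of 9 libraries. The labels were followed, so the identity of this compound rests on them alone. The share of intronic reads in the deposited quality metrics was 29.97 ± 2.07% in BDL_SB525334, 35.2 ± 0.817% in BDL_Nint, 32.9 ± 1.14% in BDL_Sora, 35.6 ± 0.895% in BDL_veh and 27.4 ± 2.13% in Sham_veh (SD). Its part in the results was examined only through a covariate made from all quality metrics. Metrics such as this share differ between groups, so calls kept or lost with that covariate cannot separate quality from group. Levels of cell type markers were not analysed here. In bulk slices, fewer cells of a type and less RNA per cell cannot be told apart.

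Annotated starts were sought in RefSeq (GRCr8) for all 4 genes, and 2 of the 4, Scd and Srebf1, were matched. The 250 bases before each start of these 2 genes are shown, and Srebf1 has more than 1 annotated start. The Scd stretch is chr1:253231732-253231981 and those of Srebf1 are chr10:45519011-45519260 and chr10:45529165-45529414, all on the minus strand and printed 5′ to 3′ in the sense of the gene. Capitals mark a CCAAT box (those letters, bound by NF-Y) or a GC box (GGGCGG, bound by Sp1) on either strand.
Scd: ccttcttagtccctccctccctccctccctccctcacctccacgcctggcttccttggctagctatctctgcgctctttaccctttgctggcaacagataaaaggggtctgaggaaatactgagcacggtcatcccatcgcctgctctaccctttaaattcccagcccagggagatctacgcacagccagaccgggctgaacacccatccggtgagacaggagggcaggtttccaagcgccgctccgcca
Srebf1, start with the lower coordinate: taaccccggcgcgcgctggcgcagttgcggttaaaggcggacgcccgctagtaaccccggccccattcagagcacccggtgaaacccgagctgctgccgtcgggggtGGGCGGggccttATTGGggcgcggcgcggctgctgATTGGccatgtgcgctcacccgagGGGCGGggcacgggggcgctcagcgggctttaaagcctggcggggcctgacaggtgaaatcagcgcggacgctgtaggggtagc
Srebf1, start with the higher coordinate: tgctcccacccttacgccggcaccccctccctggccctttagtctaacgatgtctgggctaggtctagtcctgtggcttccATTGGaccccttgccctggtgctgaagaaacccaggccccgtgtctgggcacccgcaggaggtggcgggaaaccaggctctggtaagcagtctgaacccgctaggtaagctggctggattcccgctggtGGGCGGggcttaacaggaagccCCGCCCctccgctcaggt
The lower Srebf1 start had 2 CCAAT boxes and 2 GC boxes before it, the higher one 1 and 2, and the Scd stretch had 0 of either. Of 33469 stretches of this length in the table, 34% held a CCAAT box and 30.5% a GC box. An E-box (CANNTG, in 65.5% of stretches) occurred 3 times before the lower Srebf1 start and 0 times in the other stretches, and is not in capitals. A short core of the sterol regulatory element (CACNCCA, in 14.4% of stretches), a single LXR element (AGGTCA, 14.1%) and the LXR direct repeat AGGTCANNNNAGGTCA, made of that element, were in 0 of the 3 stretches, which says only that these letters are not in these windows. The deposited counts are per gene, so transcripts from the 2 Srebf1 starts cannot be told apart.

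The effect of bile duct ligation was taken from the vehicle-treated slices of ligated and sham-operated rats. Ligated slices held 59.8-fold less Scd RNA than sham slices. Fasn RNA was higher and Srebf1 RNA lower by small amounts with TMM factors, the second of which was not called with total counts, while the value of Acaca did not pass the test. Thus 3 of the 4 genes were called, 1 higher and 2 lower (adjusted p under 0.05), where 82.2% of all genes tested were called, 40% higher and 42.2% lower, so the count itself lies near the background of this comparison. With total counts 66.1% of the called genes were higher, against 48.7% with TMM factors. The median log2 fold change of the 4 genes was -0.20, against -0.04 over all genes tested.

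**Figure D1:**
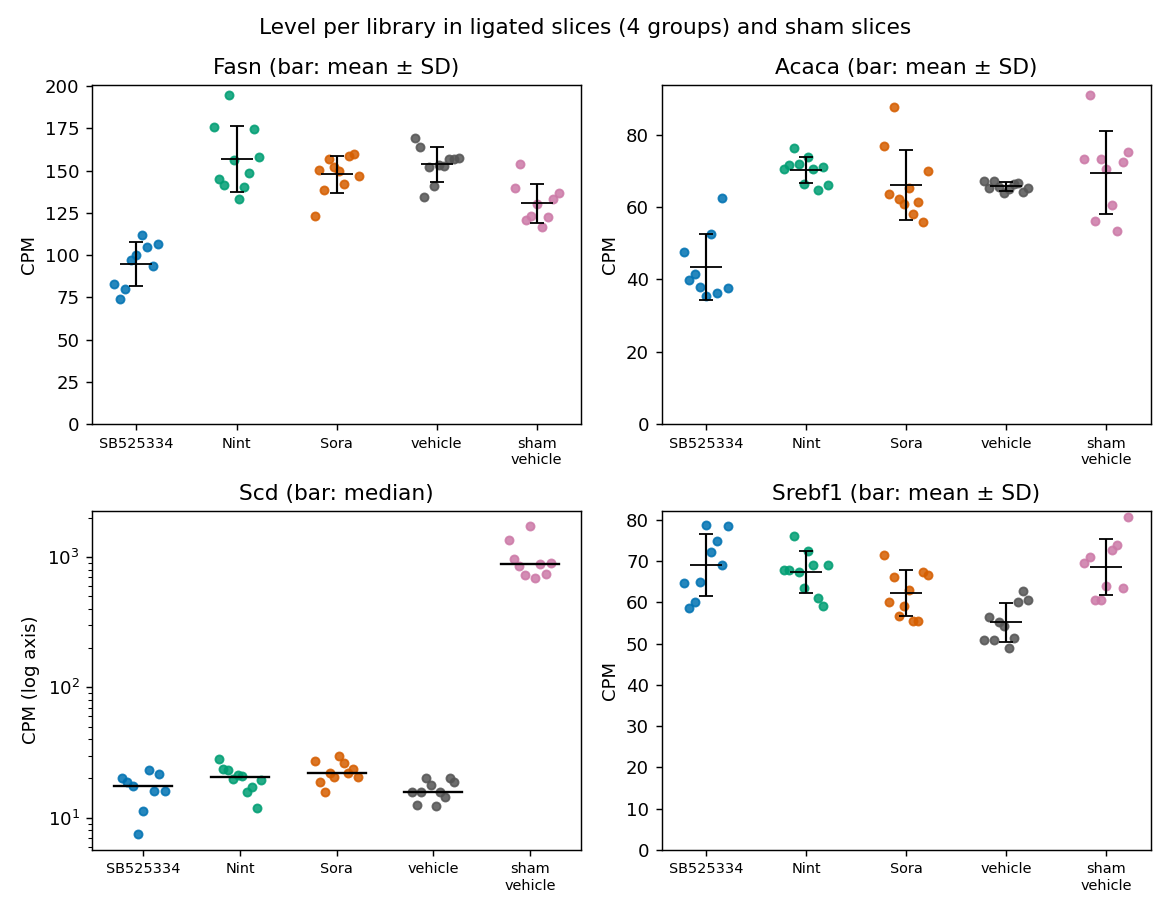
Level of each gene in every library (points), by group, in CPM on linear axes that start at 0 and, for Scd, on a log axis. Bars are the mean ± SD, or the median for Scd. All 9 sham libraries lie at 689 CPM Scd or more and all ligated ones at 29.9 or less, and SB525334 has the lowest mean for Fasn, at 94.6 CPM, and for Acaca, at 43.5 CPM.

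Acaca, the committed step, ranged from 63.9 to 67.3 CPM with a median of 65.5 in ligated vehicle slices, against 53.4 to 91.0 CPM with a median of 72.5 in sham slices. The sham libraries spread on both sides of the narrow ligated group. The log2 fold change was -0.08 (95% interval -0.25 to 0.09, edgeR quasi-likelihood test, adjusted p = 0.369) with TMM factors, and 0.27 with total counts (edgeR adjusted p = 0.00764), where the median of all genes tested was 0.30.

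Fasn ranged from 134.3 to 169.5 CPM with a median of 155.0 in ligated vehicle slices, against 116.4 to 153.9 CPM with a median of 130.1 in sham slices. The groups overlapped, with means of 153.8 ± 10.2 and 130.7 ± 11.7 CPM (SD, n = 10 and 9). Fasn was 1.18-fold higher, or 0.24 on the log2 scale (SE 0.067, adjusted p = 0.00147 in edgeR), and 81.9% of all genes tested had a larger change. With total counts it was 0.59 (edgeR adjusted p = 1.53e-09). Relative to the median of all genes it was 0.28 with each scaling. Scaling shifts all genes nearly alike, so that value stays the same by construction and is no check on the scaling. With the first principal component of the quality metrics as a covariate it was 0.18 (edgeR adjusted p = 0.203) and no longer called.

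Scd ranged from 12.2 to 20.3 CPM with a median of 15.8 in ligated vehicle slices, against 689.2 to 1722 CPM with a median of 885.5 in sham slices. The groups did not overlap, and the lowest sham library held more than the highest ligated one by a wide margin. In estimated counts, 180.98 to 437.827 per ligated vehicle library stood against 10411.5 to 22288.3 per sham library. On the log2 scale the change was -5.90 (SE 0.188, edgeR adjusted p = 7.84e-31), and the 59.8-fold decrease had a 95% interval of 46 to 77.8. It ranked 19 among the 6235 genes called lower in ligated slices, by size of the log2 fold change. Over leaving out each library in turn the value stayed between -5.96 and -5.76. Within each of the 3 well columns (the number in the well-like code of the library description) that held both groups, Scd was lower in ligated slices, by log2 differences of -5.83 to -5.51. As the groups did not overlap, this direction was fixed and only the sizes add to the result.

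Srebf1, the regulator, ranged from 49.0 to 62.8 CPM with a median of 54.7 in ligated vehicle slices, against 60.5 to 80.6 CPM with a median of 69.6 in sham slices. Of the 10 ligated libraries 8 lay below the lowest sham library, and the other 2 overlapped with sham. Srebf1 differed by -0.31 on the log2 scale (adjusted p = 1.05e-05 in edgeR, SE 0.061), a level of 0.805 times that of sham slices. This direction depends on the scaling. When libraries were scaled by total counts the log2 fold change of Srebf1 was 0.039 (edgeR adjusted p = 0.58), where the median of all genes moved to 0.30. Relative to that median Srebf1 was at -0.27 with each scaling, which follows by construction.

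SB525334 was compared with vehicle in ligated slices. Fasn and Acaca fell with SB525334, to 0.615 and 0.662 times the vehicle level. Srebf1 rose with TMM factors but was not called with total counts, and Scd did not pass the test. Thus 3 of the 4 genes were called, 2 lower and 1 higher, where 73% of all genes tested were called, 34.8% lower and 38.2% higher, so this count too lies near the background. With total counts 24.5% of the called genes were higher, against 52.3% with TMM factors. The median log2 fold change of the 4 genes was -0.27, against 0.04 over all genes tested. Reads that did not map uniquely made up 14.4 ± 3.44% in slices with SB525334 and 8.54 ± 0.235% in vehicle slices (SD, n = 9 and 10), and with the covariate made from the quality metrics Fasn was at -0.65 (edgeR adjusted p = 1.97e-05).

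Acaca ranged from 35.5 to 62.5 CPM with a median of 39.9 in slices with SB525334, against 63.9 to 67.3 CPM with a median of 65.5 in vehicle slices. The groups did not overlap, though the highest SB525334 library came close to the lowest vehicle library. Acaca changed by -0.59 on the log2 scale (adjusted p = 3.59e-08 in edgeR, SE 0.086), and 44.1% of all genes tested had a larger change. Within the 3 well columns that held both groups it was lower in each, as the lack of overlap requires. The log2 differences there were -0.88 to -0.20, and with the quality covariate Acaca was at -0.44 (edgeR adjusted p = 0.0136). SB525334 libraries 1, 6 and 8 held the most Acaca of their group, so leaving them out had to give a larger decrease. Without them Acaca was at -0.78 (edgeR adjusted p = 6.82e-12).

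Fasn ranged from 74.1 to 112 CPM with a median of 97.1 in slices with SB525334, against 134.3 to 169.5 CPM with a median of 155.0 in vehicle slices. No SB525334 library reached the lowest vehicle library. The means were 94.6 ± 13.0 CPM (SD, n = 9) and 153.8 ± 10.2 CPM (n = 10), which is -0.70 on the log2 scale (SE 0.068, adjusted p = 8.82e-13 in edgeR), and 37% of all genes tested had a larger change. Fasn was lower with SB525334 in 3 of the 3 well columns that held both groups, which follows from the lack of overlap. Its call also held with each of the 12 other settings of the fit and without each library in turn.

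Scd ranged from 7.46 to 23.1 CPM with a median of 17.4 in slices with SB525334, against 12.2 to 20.3 CPM with a median of 15.8 in vehicle slices. The SB525334 libraries spread both above and below the vehicle ones. The log2 fold change was 0.05 (95% interval -0.29 to 0.39, edgeR adjusted p = 0.795), and its sign turned with 8 of 12 other settings, none of which called it.

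Srebf1 ranged from 58.7 to 78.8 CPM with a median of 68.99 in slices with SB525334, against 49.0 to 62.8 CPM with a median of 54.7 in vehicle slices. Of the 9 SB525334 libraries 7 lay above the highest vehicle library. Srebf1 differed by 0.33 on the log2 scale (adjusted p = 7.76e-06 in edgeR, SE 0.062). With total counts it was -0.09 (edgeR adjusted p = 0.198), where the median of all genes stood at -0.38. Relative to that median Srebf1 was at 0.29 with each scaling, which follows by construction. Srebf1 was higher with SB525334 in 2 of the 3 well columns that held both groups. With total counts Fasn was at -1.11 (edgeR adjusted p = 9.74e-18) and Acaca at -1 (edgeR adjusted p = 2.65e-13). Relative to the median of all genes they were lower, at -0.74 for Fasn and between -0.63 and -0.62 for Acaca. That median shifts along with the genes, so these values could not test the scaling.

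**Figure D2:**
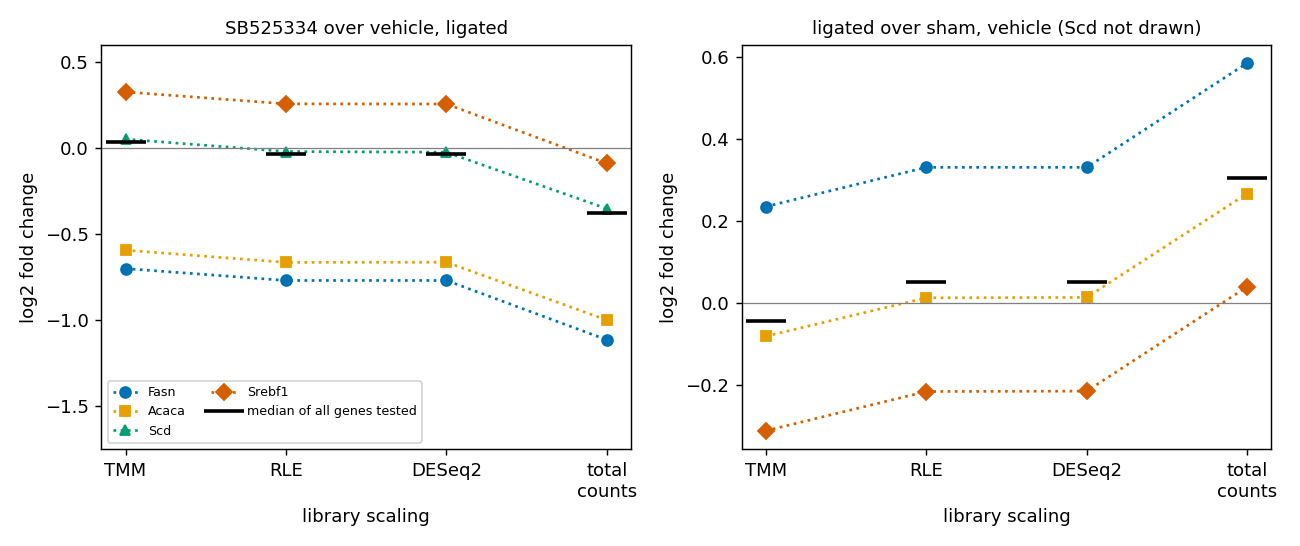
Log2 fold change of each gene with TMM, RLE or total-count scaling in edgeR and with DESeq2, for SB525334 over vehicle in ligated slices (left) and ligated over sham slices with vehicle (right, without Scd). The DESeq2 values are nearly those with RLE factors and are not a separate scaling. Points are fitted values and black bars the median of all genes tested. With total counts the bars stand at -0.38 (left) and 0.30 (right), against 0.04 and -0.04 with TMM factors, and the genes move with them.

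The ratio of 2 genes in a library does not depend on how libraries are scaled, and 17 of 24 tests of such ratios had an adjusted p under 0.05 (two-sided permutation tests, 6 ratios in 4 comparisons). The 6 ratios are built from 4 genes, so these tests partly repeat each other. The share called among ratios of other gene pairs was not computed, so the count itself has no background to be set against. The log2 ratio of Fasn to Srebf1 counts averaged 0.448 ± 0.103 in slices with SB525334 and 1.48 ± 0.137 in ligated vehicle slices (SD, n = 9 and 10). These groups did not overlap, and the difference of -1.03, or 2.05-fold, had an adjusted p = 8.68e-05 (exact permutation test, p = 2.17e-05, the smallest these libraries can give). The ratio of Acaca to Srebf1 fell by 0.943 on the log2 scale, with no overlap (exact permutation test, adjusted p = 8.68e-05). The ratio of Scd to Acaca was higher with SB525334 by 0.615 (exact permutation test, adjusted p = 0.00451), and that of Scd to Fasn by 0.706 (exact permutation test, adjusted p = 0.0106), a call lost without SB525334 libraries 1, 6 and 8 (0.506, exact permutation test, adjusted p = 0.0685). Those libraries held the most Scd of their group, so this loss is no independent check. The ratio of Acaca to Fasn differed by 0.09 between slices with SB525334 and with vehicle (exact permutation test, adjusted p = 0.488), and with ligation it fell by 0.302 (exact permutation test, adjusted p = 0.000963). The log2 ratio of Fasn to Srebf1 was 1.48 ± 0.137 in ligated vehicle slices, against 0.933 ± 0.163 in sham slices (SD, n = 10 and 9), with no overlap (exact permutation test, adjusted p = 8.68e-05). The ratio of Scd to Fasn stood at -3.25 ± 0.296 in ligated vehicle slices, against 2.85 ± 0.402 in sham slices, a 68.4-fold difference with no overlap (exact permutation test, adjusted p = 8.68e-05). Against Srebf1 the Scd ratio differed 46.8-fold, also with no overlap (exact permutation test, adjusted p = 8.68e-05).

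**Figure D3:**
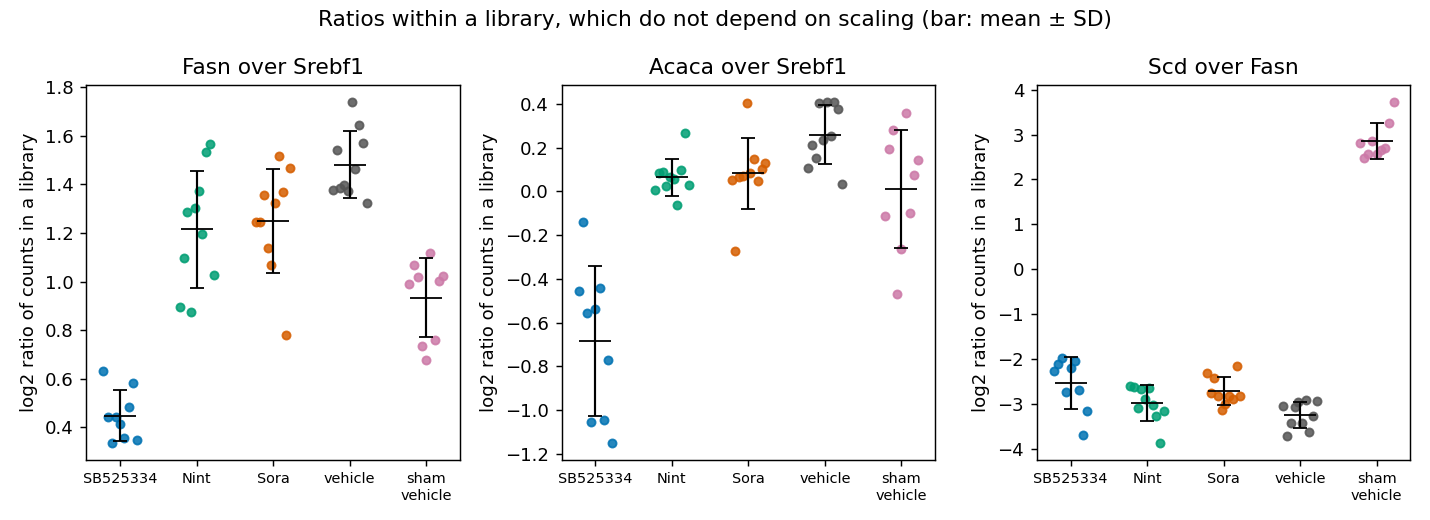
Log2 ratio of the counts of a pair of genes in each library (points), by group, with mean ± SD (bars). The SB525334 libraries lie below all other groups for Fasn over Srebf1, at 0.448 on average, and the sham libraries lie above all others for Scd over Fasn, at 2.85.

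The SB525334 libraries were not alike. Libraries 1, 6 and 8, which stood apart in earlier results of these data, had 11.27, 9.85 and 10.94% of reads that did not map uniquely, and the other 6 had 13.42 to 20.85%. The same 3 libraries held 47.6, 52.7 and 62.5 CPM of Acaca, above the 35.5 to 41.5 CPM of the other 6. They also held 20.0, 23.1 and 21.7 CPM of Scd, above the 7.46 to 18.8 CPM of the other 6. For Fasn they ranged from 82.9 to 112 CPM and the other 6 from 74.1 to 106.7 CPM, and for Srebf1 they lay within the range of the other 6. The part of the mapping share in these levels was not tested. Without libraries 1, 6 and 8 the log2 fold changes against vehicle were -0.71 for Fasn, -0.78 for Acaca, -0.17 for Scd and 0.33 for Srebf1, and Fasn, Acaca and Srebf1 were called in edgeR. For Acaca and Scd this removed the highest libraries of the group, so lower values had to result.

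**Figure D4:**
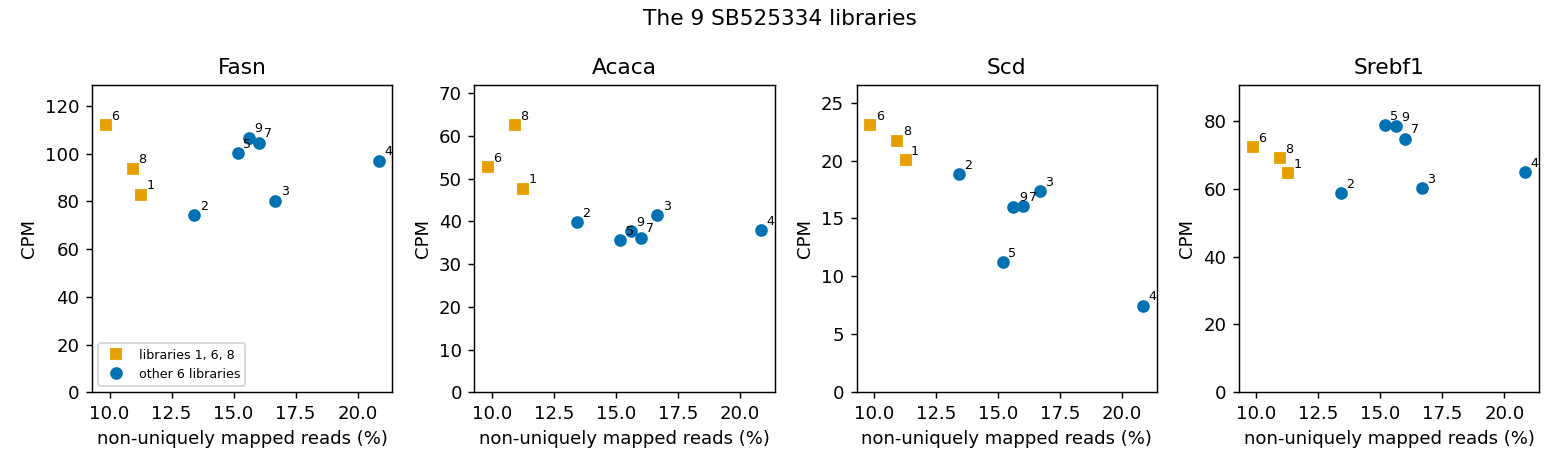
Level of each gene in CPM (vertical axes, from 0) against the percent of reads that did not map uniquely, in the 9 SB525334 libraries, numbered by replicate. Squares are libraries 1, 6 and 8, which hold 47.6 CPM of Acaca or more, and circles the other 6.

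Nint and Sora were each compared with vehicle in ligated slices. Srebf1 rose with Nint. It was also called higher with Sora, as was Scd, but both of these calls were lost under other settings. Fasn and Acaca did not pass the test with either compound. With Nint 1 of the 4 genes was called higher and 0 lower, where 24.3% of all genes tested were called, 13.3% higher and 10.9% lower. With Sora 2 of the 4 were called higher and 0 lower, where 29.3% of all genes were called, 16.3% higher and 13% lower, and the share of its calls that were higher was 38.1% with total counts and 44.8% with RLE factors, against 55.7% with TMM factors. The median log2 fold change of the 4 genes was 0.19 with Nint and 0.09 with Sora, against 0.01 and 0.02 over all genes tested.

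Acaca ranged from 64.7 to 76.4 CPM with Nint and from 55.8 to 87.6 CPM with Sora, against 63.9 to 67.3 CPM with vehicle. Both compound groups reached past the vehicle range, Sora on both sides of it. The log2 fold changes were 0.10 with Nint (95% interval -0.07 to 0.26) and 0.009 with Sora (95% interval -0.16 to 0.17), with edgeR adjusted p = 0.436 and 0.952. For Nint the call was made in a fit of these 2 groups alone, at 0.09 (edgeR adjusted p = 0.0142).

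Fasn ranged from 133.1 to 194.7 CPM with Nint and from 123.0 to 159.7 CPM with Sora, against 134.3 to 169.5 CPM with vehicle. Beyond the vehicle range lay 3 Nint libraries above and 1 below it, and 1 Sora library below it. The log2 fold changes were 0.03 with Nint (95% interval -0.10 to 0.16) and -0.06 with Sora (95% interval -0.19 to 0.07), with edgeR adjusted p = 0.813 and 0.566.

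Scd ranged from 11.9 to 28.0 CPM with a median of 20.4 with Nint, and from 15.7 to 29.9 CPM with a median of 22.2 with Sora, against 12.2 to 20.3 CPM with a median of 15.8 with vehicle. Of 10 libraries 8 with Sora and 5 with Nint lay above the highest vehicle library. The log2 fold change with Sora was 0.47 (SE 0.159, edgeR adjusted p = 0.02), and it was not called with total counts (0.41, adjusted p = 0.0532) or without vehicle libraries 3 and 6 (0.43, adjusted p = 0.0552). Both of those libraries lay below the vehicle mean for Scd, and library 6 was the lowest, so leaving them out had to shrink the increase. Within the 4 well columns with both groups Scd was higher with Sora in each, by 0.003 to 0.616. With Nint it was 0.30 (95% interval -0.02 to 0.62, edgeR adjusted p = 0.184). Slices with Sora averaged 22.7 ± 4.26 CPM and sham slices 979.3 ± 338.7 CPM (SD, n = 10 and 9), so the difference from vehicle was small beside that from sham.

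Srebf1 ranged from 59.1 to 76.0 CPM with a median of 67.9 with Nint, and from 55.5 to 71.6 CPM with a median of 61.6 with Sora, against 49.0 to 62.8 CPM with a median of 54.7 with vehicle. Of 10 libraries 8 with Nint and 5 with Sora lay above the highest vehicle library. The log2 fold change with Nint was 0.29 (SE 0.06, edgeR adjusted p = 0.000214), with a range of 0.25 to 0.31 over 12 other settings, all of which called it. With Sora it was 0.17 (SE 0.06, edgeR adjusted p = 0.0239), and this call was lost with RLE factors, DESeq2, total counts and without vehicle libraries 3 and 6, at adjusted p = 0.0783 to 0.185, as well as without Sora library 1 or vehicle library 6 alone. Vehicle libraries 3 and 6 lay below the mean of their group for Srebf1, so leaving them out had to shrink the increase. Within well columns Srebf1 was higher in 3 of 3 with Nint and in 4 of 4 with Sora. The ratio of Fasn to Srebf1 fell by 0.267 on the log2 scale with Nint and by 0.231 with Sora (permutation tests, adjusted p = 0.0125 for each).

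**Figure D5:**
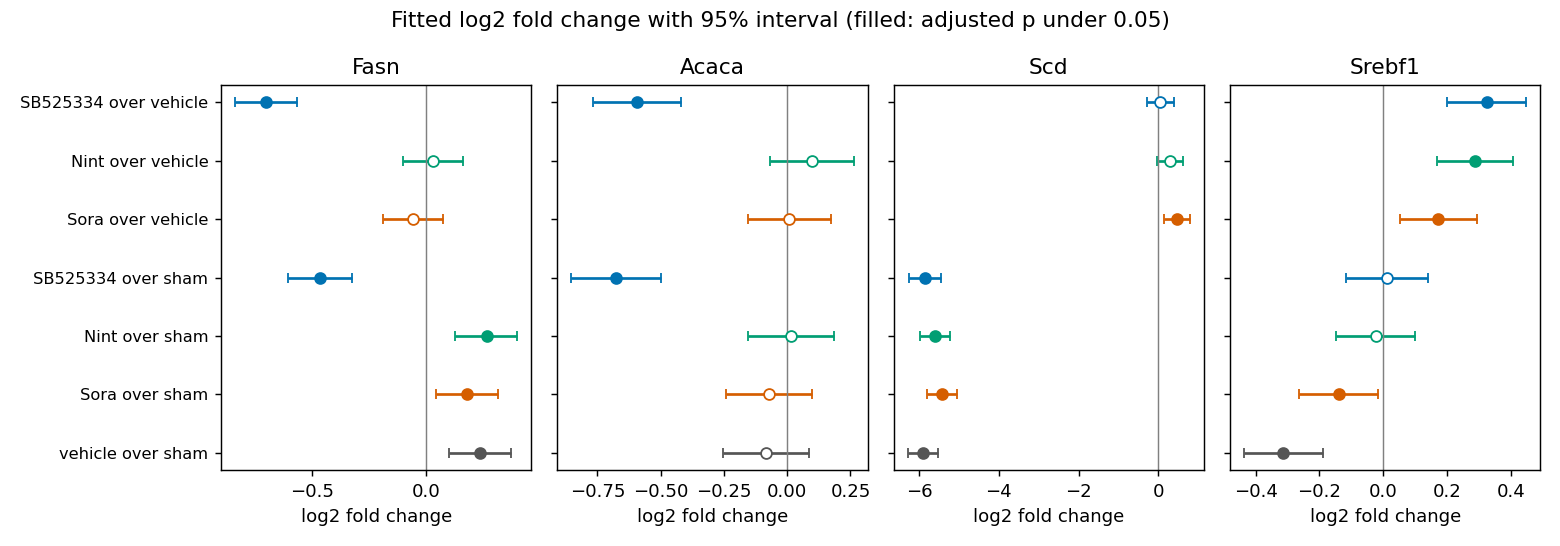
Fitted log2 fold changes with 95% intervals for the 3 compounds over vehicle, and for all ligated groups over sham, for each gene on its own horizontal scale. Filled points had an adjusted p under 0.05. The Scd points over sham lie between -5.90 and -5.43 for all 4 ligated groups.

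The compounds were also compared with each other, although the labels give no doses or times and so do not show whether these matched. Fasn and Acaca were lower with SB525334 than with either multikinase inhibitor, and Nint and Sora did not differ in a called way in these genes. Between Nint and Sora 0 of the 4 genes were called, where 2.32% of all genes tested were, and 0 of the 4 had an unadjusted p under 0.05 in edgeR. DESeq2, limma and the other settings also called 0. The largest of these 4 differences was -0.18 for Scd (95% interval -0.50 to 0.14).

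SB525334 lay below Nint by a log2 fold change of -0.73 for Fasn (SE 0.068, edgeR adjusted p = 2.98e-13) and -0.69 for Acaca (SE 0.086, edgeR adjusted p = 1e-09). It lay below Sora by -0.64 for Fasn (edgeR adjusted p = 1.15e-11) and -0.60 for Acaca (edgeR adjusted p = 2.7e-08). For Fasn the SB525334 libraries, at 112 CPM or less, did not overlap with those of Nint, at 133.1 or more, or Sora, at 123.0 or more. Against Nint 2 of the 4 genes were called, where 72.7% of all genes tested were, and against Sora 4 of the 4, where 72.4% were. SB525334 slices had less Scd than Sora slices, by -0.42 (SE 0.166, edgeR adjusted p = 0.0207), but not called without SB525334 library 4 or 5, and 0.04 with the quality covariate (edgeR adjusted p = 0.91). Srebf1 was higher with SB525334 than with Sora by 0.15 (edgeR adjusted p = 0.0251), and was lower with total counts, at -0.20 (edgeR adjusted p = 0.0045). Between SB525334 and Nint, Scd differed by -0.25 (95% interval -0.58 to 0.09, edgeR adjusted p = 0.179). Leaving out SB525334 libraries 1, 6 and 8, the highest of their group in Scd, had to lower this value, which was then called (-0.47). It was also called with total counts (-0.62). For the same pair Srebf1 differed by 0.04 (95% interval -0.09 to 0.16, edgeR adjusted p = 0.597), and by -0.34 with total counts (edgeR adjusted p = 5.3e-06), where the median of all genes was -0.39.

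The compound-treated ligated slices were then set against sham slices. With SB525334 3 of the 4 genes were called, where 81.2% of all genes tested were, with Nint 2 of the 4, where 80.9% were, and with Sora 3 of the 4, where 80.4% were. Scd remained far below sham in all of them, by 57.8-fold with SB525334, 48.7-fold with Nint and 43.1-fold with Sora (edgeR adjusted p = 1.27e-29, 4e-30 and 1.02e-29). Fasn was below sham with SB525334, at a log2 fold change of -0.47 (adjusted p = 4.72e-08 in edgeR, SE 0.069), and above it with Nint and Sora, at 0.26 and 0.18 (edgeR adjusted p = 0.000432 and 0.0143), both of which were lost with the quality covariate and stood at 0.59 and 0.47 with total counts. Acaca was below sham with SB525334 by -0.68 (SE 0.088, edgeR adjusted p = 1.81e-09), with values of 0.02 for Nint and -0.07 for Sora that did not pass the test with TMM factors and were called above sham with total counts, at 0.33 and 0.22 (edgeR adjusted p = 0.00109 and 0.0306). The median of all genes was then 0.30 for Nint and 0.27 for Sora. Srebf1 differed from sham by 0.01 with SB525334 (95% interval -0.12 to 0.14) and by -0.02 with Nint (95% interval -0.15 to 0.10), neither called with TMM factors, though with total counts Nint was at 0.29 (edgeR adjusted p = 5.74e-05). It differed from sham by -0.14 with Sora (edgeR adjusted p = 0.0354), a call lost with 7 of 12 other settings and turned to 0.15 with total counts (edgeR adjusted p = 0.0305).

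The order of the mean levels, and the calls between neighbours, are given here with TMM factors. Fasn ran from SB525334 at 94.6 CPM over sham at 130.7, Sora at 147.8 and vehicle at 153.8 to Nint at 156.9, and the last 3 were not called against each other. Acaca ran from SB525334 at 43.5 CPM over vehicle at 65.8, Sora at 66.2 and sham at 69.6 to Nint at 70.3, and none of the last 4 were called against each other, whereas with total counts vehicle, Sora and Nint were each called above sham. Scd ran from vehicle at 16.4 CPM over SB525334 at 16.9, Nint at 20.1 and Sora at 22.7 to sham at 979.3, and among the 4 ligated groups the neighbours in this order were not called against each other, whereas with total counts SB525334 was called below Nint. Srebf1 ran from vehicle at 55.1 CPM over Sora at 62.2, Nint at 67.3 and sham at 68.5 to SB525334 at 69.1, and among the last 3 no pair was called, whereas with total counts Nint was called above both SB525334 and sham.

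Within groups the 4 genes showed no relation that passed correction. Of 30 correlations between 2 genes in 1 group, 0 had an adjusted p under 0.05 with TMM factors, 4 an unadjusted p under 0.05, and 2 an adjusted p under 0.05 with total counts. Those 2 were also the strongest with TMM factors. Fasn and Srebf1 in slices with SB525334 had Pearson's r = 0.868 and Spearman's rho = 0.833 (n = 9, exact permutation test, p = 0.00329 and 0.00827, adjusted p = 0.0783 and 0.124), with r = 0.681 without the 2 libraries farthest from the median of Fasn. Fasn and Acaca in sham slices had r = 0.842 and rho = 0.8 (n = 9, exact permutation test, p = 0.00522 and 0.0138, adjusted p = 0.0783 and 0.138), with r = 0.716 without 2 libraries.

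Across all 48 libraries, which share groups and scaling, the gene most like Scd in log2 CPM was ENSRNOG00000016484 (Pearson's r = 0.98). That gene stood at 11.3 ± 1.26 CPM in ligated vehicle slices and 256.6 ± 78.2 CPM in sham slices (SD, n = 10 and 9). With Scd 549 genes had an r over 0.9 and 1221 an r under -0.9. Scd separates sham from ligated slices by a large step, so any gene with such a step reaches a high r. The counts for the 4 genes can thus follow from group differences alone and do not show shared regulation. Only 4 genes reached an r over 0.9 with Acaca, and 0 with Fasn or Srebf1, whose highest values were 0.89 and 0.74. An r under -0.9 was reached by 7 genes with Acaca, 1 with Fasn and 0 with Srebf1. The gene most like Fasn, ENSRNOG00000028629, stood at 102.2 ± 6.57 CPM in slices with SB525334, 167.4 ± 4.996 CPM in ligated vehicle slices and 144.6 ± 7.41 CPM in sham slices (SD, n = 9, 10 and 9). Neither ID was paired with a symbol in the sources used here, and these 2 were picked from the leading genes after the values were seen.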

How the data were processed

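RNA from 48 libraries of rat liver slices in 5 groups was analysed, with groups and replicate numbers from the titles. The deposited table holds expected counts per gene, not normalised, of which 8.02% were not whole (tolerance 1e-06). RSEM and edgeR and the build Rnor_6.0 are named per the submitters' processing notes, while for the aligner, annotation release and strand setting each is not given in the sources used here. A table of log2 CPM values for expressed protein-coding genes and a table of quality metrics, with other units per metric, were also deposited by the authors, and 0 columns were left unused. A sample sheet, with other text values, was deposited by the authors too.

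Counts were rounded, filtered with filterByExpr by group (14775 of 32883 genes), scaled with TMM factors and tested by robust quasi-likelihood (glmQLFit, glmQLFTest) in edgeR 4.0.16 under R 4.3.3, with the 5 groups in a joint fit and no covariate, in 10 comparisons of 2 groups. Tests were two-sided, p-values were adjusted after Benjamini and Hochberg over all genes, and genes were called at an adjusted p under 0.05. Intervals of log2 fold changes are at the 95% level, with the SE derived from the F statistic. Log2 ratios of counts used an offset of 0.5. Differences in ratios and correlations used permutation tests from SciPy 1.17.1 (Python 3.11.15), which were exact if a group held 9 libraries and drew 100000 permutations if not, adjusted over 24 and 30 tests. Log2 CPM used a prior count of 2. Alternatives were RLE factors, total counts, DESeq2 1.42.0, removal of the filter, a minimum of 5 CPM in 9 libraries, the 2 groups alone, a replicate block, well column, the first principal component of 151 varying quality metrics as a covariate, limma 3.58.1 on the deposited log2 CPM, and leaving out libraries. Any pair of libraries in a group differed by more than sampling noise (lowest chi-square per degree of freedom 4.08 over 207 pairs). On simulated data for SB525334 against vehicle the test recovered 68% of genes changed 1.5-fold and 92% of those changed 2-fold among 14568 genes. Only 50 genes were changed at each fold there, and the groups were given no difference in composition. In the real comparison 73% of genes were called, so these shares do not give the power of the real test.

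The members, lists and most alternatives were chosen with earlier results of these data known. Genes like a member were to be the 3 with the highest Pearson's r, named by symbol where one was paired with the ID. The reference table (GRCr8, 47357 genes) holds 0 Ensembl IDs, so names of the 4 members come from the definition of the set, and lists of other pathway genes and of cell type markers could not be matched. Values of 3 counts per library correspond to 0.101 to 0.245 CPM, which covers counting error only.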

Additional observations from a re-analysis of the deposited data

How the results depend on the processing

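Leaving out libraries or changing the fit kept the call and direction of Scd for ligation (log2 fold change -6.51 to -5.55 over 12 settings), of Fasn for SB525334 (-1.11 to -0.65) and of Acaca for SB525334. Scaling moved the smaller values. The quality covariate ended the call of Fasn for ligation (0.18). With total counts Srebf1 was 0.039 for ligation, -0.09 for SB525334 over vehicle, -0.20 over Sora and -0.34 over Nint (both called), 0.111 for Sora over vehicle (not called), 0.15 for Sora over sham and 0.29 for Nint over sham (both called), and -0.051 for SB525334 over sham, Acaca was 0.27 for ligation, 0.22 for Sora over sham and 0.33 for Nint over sham (all called), and -0.052 for Sora over vehicle, Fasn was 0.59 for ligation, and Scd was -0.62 for SB525334 over Nint, -0.35 for SB525334 over vehicle and 0.41 for Sora over vehicle. The values move with the median of all genes, by the construction of that scaling. Of called genes the higher share with total counts and with TMM factors was 25.5 and 49.8% for SB525334 over Sora, 23.9 and 50.1% over Nint, 66.4 and 49.5% for Nint over sham, 65.9 and 49.9% for Sora over sham and 78.4 and 59.2% for Nint over Sora. For the calls below the cause was not tested.

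Srebf1 with Sora over vehicle was 0.13 with RLE factors, 0.13 with DESeq2 and 0.14 without vehicle libraries 3 and 6, and Srebf1 with SB525334 over Sora was 0.12 with RLE factors, 0.12 with DESeq2, 0.10 with the filter of 5 CPM and 0.14 from the 2 groups alone, none called. Scd with Sora was 0.43 without vehicle libraries 3 and 6, which lay below the vehicle mean for both Scd and Srebf1. Scd with SB525334 over Nint was -0.47 without SB525334 libraries 1, 6 and 8 (called) and 0.25 with the quality covariate, which gave 0.038 over Sora. Those libraries held the most Scd of their group, so the first of these values had to be lower. Acaca with Nint was 0.09 from the 2 groups alone (called).

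The sign also turned for values called with neither TMM factors nor the settings named here. Scd with SB525334 over vehicle was -0.021 with RLE factors, -0.025 with DESeq2, -0.01 with the filter of 5 CPM, -0.066 with well column, -0.021 from the 2 groups alone, -0.17 without libraries 1, 6 and 8 and -0.029 from the deposited log2 CPM. Acaca for ligation was 0.012 with RLE factors, 0.013 with the filter of 5 CPM and 0.013 with DESeq2. Acaca with Sora over vehicle was -0.03 with RLE factors, -0.00042 with the filter, -0.0081 from the 2 groups alone, -0.031 with DESeq2 and -0.012 from the deposited log2 CPM, and over sham 0.013 with the filter. Acaca with Nint over sham was -0.033 with well column and -0.13 with the quality covariate. Srebf1 with SB525334 over Nint was -0.003 with RLE factors, -0.021 with the filter and -0.0037 with DESeq2. Srebf1 with Nint over sham was 0.043 with RLE factors, 0.068 with the filter, 0.015 from the 2 groups alone, 0.043 with DESeq2 and 0.02 from the deposited log2 CPM.

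Leaving out 1 library at a time gave these ranges where a call or a sign changed. They were -0.044 to 0.034 for Acaca with Sora over vehicle, -0.026 to 0.072 for Acaca with Nint over sham, -0.011 to 0.053 for Fasn with Nint over vehicle, -0.49 to -0.33 for Scd with SB525334 over Sora, -0.017 to 0.147 for Scd with SB525334 over vehicle, 0.13 to 0.18 for Srebf1 with SB525334 over Sora, 0.15 to 0.20 for Srebf1 with Sora over vehicle, -0.046 to 0.0068 for Srebf1 with Nint over sham, -0.012 to 0.045 for Srebf1 with SB525334 over sham and -0.16 to -0.11 for Srebf1 with Sora over sham. Srebf1 with SB525334 over Sora was not called without SB525334 library 5, 7 or 9 or Sora library 7 or 8. Srebf1 with Sora over sham was not called without Sora library 2, 4, 5, 7 or 8 or sham library 2, 6, 7 or 9.

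Without vehicle libraries 3 and 6 the log2 ratio of Acaca to Srebf1 was 0.21 for ligation and -0.14 for Sora, and that of Scd to Srebf1 0.28 for Sora, none called. Without SB525334 libraries 1, 6 and 8 the ratio of Scd to Srebf1 was -0.54 (called), Scd to Fasn 0.51 (not called) and Acaca to Fasn -0.065. Those libraries held the most Acaca and Scd of their group, so these shifts are no independent check.

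Of all genes, 343 were called between Nint and Sora, 161 with well column, 1605 from the 2 groups alone, 644 without SB525334 libraries 1, 6 and 8, 598 with DESeq2, 171 from the deposited log2 CPM, and 166 to 567 over leaving out single libraries (outside 1.5 times the count without Nint library 1 or 7, or Sora library 3, 5, 6 or 8). Nint over vehicle gave 3587, and 5674 from the 2 groups alone. The replicate numbers are not stated to pair libraries, and deviations of same-numbered libraries correlated at -0.281 to 0.55 over 93 pairs, over 0.1 in 25. Those pairs include ligated with sham libraries, which cannot share a rat. The labels do not say whether slices of a rat were spread over the ligated groups, and the main tests use no pairing. With the number as a replicate block no call of the 4 genes changed, and for Nint against Sora 310 genes were called. At 79.3 counts in its lowest library, Scd in ligated slices is the value most limited by depth.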
